A study of Arabidopsis thaliana with 22 samples.

Results

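The genes described are the 6 plastid tRNA genes of 100 bp or more in Arabidopsis thaliana, which are the intron-containing tRNA genes, together with matK, the protein-coding gene that lies inside the longest of them. They are 7 of 112 plastid genes, and were chosen from the annotation, the tRNA genes by their length and matK by its place inside trnK. Of 30 tRNA genes, the other 24 are 92 bp or shorter, and the shortest of the 6 long ones is 597 bp, so no tRNA gene lies near the length limit. The members are trnK (ArthCt089, 2631 bp), matK (ArthCp003, 1515 bp), trnG (ArthCt092, 786 bp), trnL (ArthCt101, 597 bp), trnV (ArthCt103, 673 bp), trnI (ArthCt107 and ArthCt124, 801 bp) and trnA (ArthCt108 and ArthCt114, 874 bp). The copies of trnI and of trnA lie in the inverted repeats and were summed.

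The libraries came from an assay in which the transposase Tn5 inserts sequencing adapters into DNA that it can reach, applied to plastid DNA (ptATAC-seq). A Nucleoid fraction, in which plastid DNA is packed with proteins, was set against a Naked fraction of plastid DNA. Both fractions share wild-type Col-0 plants grown for 14 days under 16 h light and 8 h dark, and leaf chloroplasts fixed for 4 h in 4% formaldehyde. The labels give the same protocol for both fractions, do not state how the Naked DNA was prepared, and do not say that replicates were separate cultures of plants, so p-values measure the spread between these libraries, which may be technical.

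Each of these tRNA genes is an exon pair with an intron between. The intron of trnL, which encodes the tRNA for leucine with the anticodon UAA, is the only group I intron of the plastid genome, while those of trnK (lysine), trnG (glycine), trnV (valine), trnI (isoleucine) and trnA (alanine) are group II introns. MatK is the intron maturase encoded within the trnK intron, and in tobacco it was found bound to several group II introns, those of trnK, trnV, trnI and trnA among them. The genes trnI and trnA lie between the 16S and 23S ribosomal RNA genes and are transcribed with them. In the text below the first and last 40 bp of a gene, which in these tRNA genes hold about the exons, are called its ends, and the stretch between them its middle.

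Signal was the mean count per position over a gene, given as a percent of the same library's mean over the plastid genome, so 100 is the genome mean. Nucleoid replicates 9 and 10 had the same values throughout the 154477 positions and entered once, leaving 10 Nucleoid and 11 Naked libraries. Total counts ran from 202725 to 1813905 in Nucleoid libraries and from 105763 to 1195649 in Naked libraries, and 8 of 10 Nucleoid but 5 of 11 Naked libraries exceeded 600000. Naked replicates 9, 10 and 11 stood apart from the rest, with an unevenness along the genome (SD of log2 signal in 200 bp windows) of 1.43, 1.36 and 1.63, against 0.44 to 0.96 in the Nucleoid libraries and 0.53 to 1.01 in the other Naked libraries. Where the fold change of a whole member gene moved by over 1.5 times without them, both values are given. For segments and for genes outside the members, values without them are given only where stated.

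All 6 long tRNA genes had less signal at their ends, relative to their middles, in Nucleoid than in Naked libraries. The log2 ratio of ends to middle was lower by 0.12 to 0.73, with the largest difference in trnK and the smallest in trnA, and each difference passed an adjusted p of 0.05 (limma on log2 of signal plus 1, two-sided, Benjamini-Hochberg adjusted over the 69 genes of 200 bp or more). Over those 69 genes the same call, lower in Nucleoid, was made for 13% of genes. The gene matK, which lies wholly within the intron of trnK, did not pass.

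**Figure D1:**
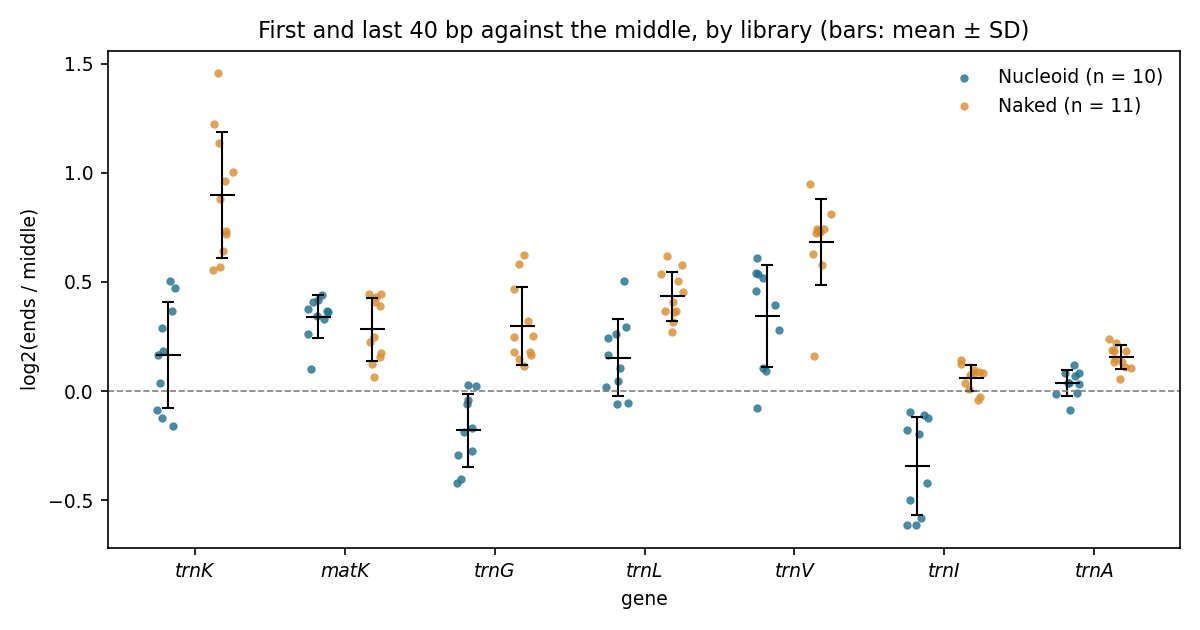
Log2 ratio of the signal in the first and last 40 bp to the signal in the middle (y axis) for each gene (x axis), with 1 point per library, 10 Nucleoid (left) and 11 Naked (right), and bars at the mean ± SD; the dashed line marks equal signal. In trnK, trnG and trnI every Nucleoid library lies below every Naked library, while the matK points of both fractions cover the same range.

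In trnK, the gene for the lysine tRNA, the log2 ratio of ends to middle had a lowest value of -0.16, a median of 0.18 and a highest value of 0.51 in Nucleoid libraries, against 0.56, 0.88 and 1.46 in Naked libraries. The fractions did not overlap. The means were 0.16 ± 0.24 in Nucleoid (SD, n = 10) and 0.90 ± 0.29 in Naked (SD, n = 11), a difference of -0.73 with an SE of 0.11 and an adjusted p of 7.51e-05 by limma. This was the lowest difference of the 69 genes. The Naked mean of trnK was the 2nd highest of 69, and its Nucleoid mean the 12th.

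The glycine tRNA gene trnG had ratios with a lowest, median and highest value of -0.42, -0.18 and 0.03 in Nucleoid libraries, against 0.11, 0.25 and 0.62 in Naked libraries. Here too the fractions did not overlap, and the means fell on opposite sides of 0, so the ends were below the middle on average in Nucleoid and above it in Naked DNA. The difference was -0.48 with an SE of 0.08 (limma adjusted p = 7.70e-05).

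The isoleucine tRNA gene trnI was the remaining gene without overlap, with -0.62, -0.31 and -0.10 as the lowest, median and highest ratios in Nucleoid libraries, against -0.04, 0.08 and 0.14 in Naked libraries. Its Naked libraries were close together around equal signal, and every Nucleoid library had less signal at its ends than in its middle. The difference was -0.40 with an SE of 0.07 (limma adjusted p = 0.000214). Mean signal was also lower in Nucleoid in both flanks. The 200 bp at lower coordinates held 117 ± 16 in Nucleoid (SD, n = 10), against 177 ± 36 in Naked libraries (SD, n = 11). The 200 bp at higher coordinates held 156 ± 19, against 200 ± 42. The flanks were not tested. The 3 genes without overlap were members, and the share of genes without overlap among all 69 was 4.35%.

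In trnV and trnL, the valine and leucine tRNA genes, the fractions overlapped. The trnV ratios had a lowest, median and highest value of -0.08, 0.43 and 0.61 in Nucleoid libraries, against 0.16, 0.73 and 0.95 in Naked libraries, and differed by -0.34 with an SE of 0.09 (limma adjusted p = 0.00809). Naked replicate 6 was the low Naked library, and all 10 Nucleoid libraries had ratios under the median of the Naked ones. The trnL ratios were -0.06, 0.14 and 0.50 in Nucleoid libraries, against 0.27, 0.41 and 0.62 in Naked libraries, and differed by -0.28 with an SE of 0.07 (limma adjusted p = 0.00299). The high Nucleoid library was replicate 11, and 8 of 10 Nucleoid libraries lay below every Naked library.

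The alanine tRNA gene trnA showed the smallest difference, with ratios of -0.09, 0.04 and 0.12 as the lowest, median and highest in Nucleoid libraries, against 0.06, 0.15 and 0.24 in Naked libraries. Of 10 Nucleoid libraries, 6 lay below every Naked library. The difference was -0.12 with an SE of 0.04 (limma adjusted p = 0.0353). It did not pass with ends of 20 bp (-0.03, adjusted p = 0.55) and was -0.22 with ends of 60 bp (adjusted p = 0.000310). Left out singly, Nucleoid replicates 6, 7, 8 and 9 and Naked replicates 2, 4 and 5 each ended the call, with an adjusted p of up to 0.0704.

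For matK the ratios were 0.10, 0.37 and 0.44 as the lowest, median and highest in Nucleoid libraries, against 0.06, 0.25 and 0.45 in Naked libraries. The fractions covered the same range, and the difference of 0.06 with an SE of 0.06 did not pass (limma adjusted p = 0.545). Beside it, 60 other protein-coding genes long enough for this measure had a median difference of 0.06, with 7 called higher and 3 called lower in Nucleoid.

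Among the lists, the 6 long tRNA genes had a median difference of -0.37, against 0.05 over all 69 genes. A list of 11 protein-coding genes with introns served as a comparison, and 10 were long enough, rps12 being listed at 114 bp. Their median was 0.01, with 1 called higher (rpl16, a ribosomal protein gene, 0.31 with an SE of 0.10, limma adjusted p = 0.0371) and 0 called lower. The gene atpF, whose product is a subunit of the plastid ATP synthase and whose intron MatK also binds in tobacco, had a difference of 0.15 (adjusted p = 0.212), and rpl2, a ribosomal protein gene likewise bound, had -0.02 (adjusted p = 0.874). The list leaves out rps16, a ribosomal protein gene that also has an intron, and whose difference was 0.0014 with an SE of 0.11 (adjusted p = 0.991). Only 3 genes outside the 6 were called lower in the same fit. They were rps14, rps7 and ycf1, and were named after their values were seen.

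**Figure D2:**
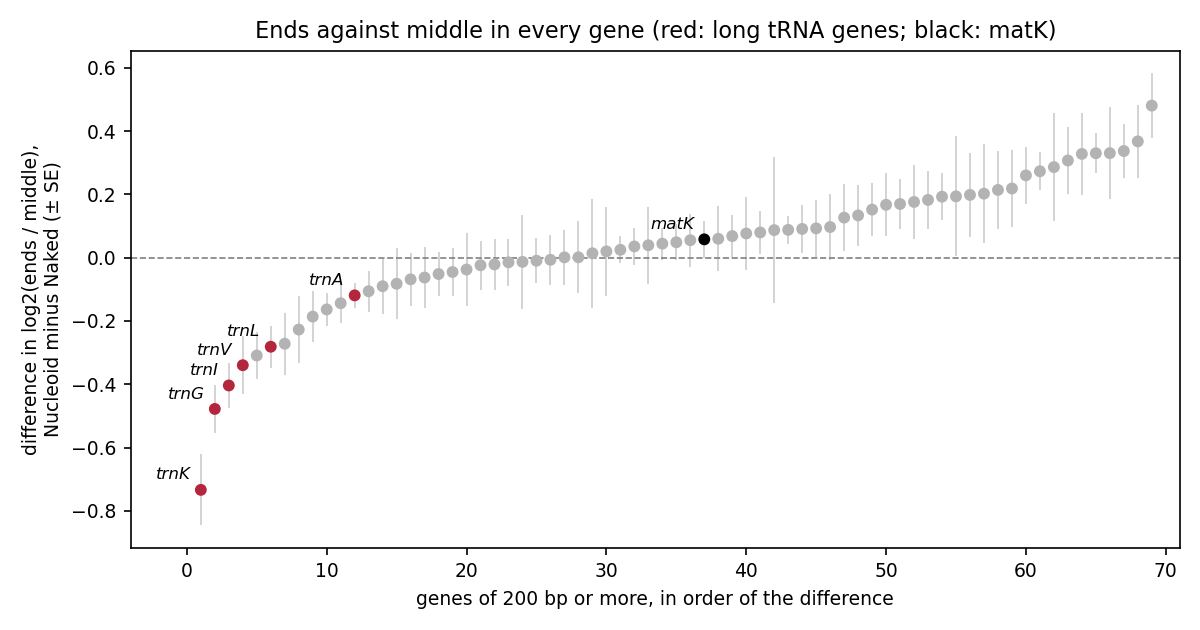
Difference between fractions in the log2 ratio of ends to middle, Nucleoid minus Naked, with its SE (y axis), for the 69 genes of 200 bp or more in order of that difference (x axis). The long tRNA genes (red) hold the 4 lowest places and 2 further places among the lowest 12, and matK (black) lies in the middle at 0.06.

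The Nucleoid libraries were not alike in this measure. In 5 of the 6 long tRNA genes the 4 lowest Nucleoid ratios were those of replicates 6, 7, 8 and 9, with trnL the exception. In trnI, for example, these 4 libraries ran from -0.62 to -0.50, Nucleoid replicates 1 to 5 ran from -0.19 to -0.10, and replicate 11 was at -0.42. The labels do not set these libraries apart, and their total counts ran from 325543 to 1813905. Without them, in a fit chosen after these values were seen, the difference was below 0 in 6 of 6 long tRNA genes but was called in 3 (trnK at -0.57, trnG at -0.37 and trnI at -0.25, each with a limma adjusted p of 0.00710), against 5.8% of all genes. It was not called in trnL (-0.19, adjusted p = 0.137), trnV (-0.18, adjusted p = 0.254) and trnA (-0.08, adjusted p = 0.302).

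Without Naked replicates 9, 10 and 11 all 6 long tRNA genes remained called, with differences from -0.59 in trnK to -0.13 in trnA. In that fit 11.6% of the 69 genes were called lower. All 6 were also called among libraries with more than 600000 counts and with log2 depth as a term in the model. The share of the 69 genes called lower was 10.1% in those libraries and 14.5% with the depth term. The counts behind a single library's ends ran from 36 to 2427 over the 6 genes.

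Taken separately, ends and middles moved differently from gene to gene. The signal at the ends was itself called lower in Nucleoid in trnL, trnI and trnA, while 34.8% of the 69 genes were called at their ends, 17.4% of the 69 in each direction. In trnI the ends held 115 ± 21 in Nucleoid libraries (SD, n = 10), against 187 ± 57 in Naked libraries (SD, n = 11), a log2 fold change of -0.66 (limma adjusted p = 0.00397), which was not called among libraries of more than 600000 counts (-0.32, adjusted p = 0.0665). In trnL they held 85.2 ± 8.7 in Nucleoid, against 106 ± 8 in Naked libraries, a log2 fold change of -0.32 (adjusted p = 0.00162). In trnA they held 155 ± 27 in Nucleoid, against 222 ± 51 in Naked libraries, a log2 fold change of -0.50 (adjusted p = 0.00462). The ends of 8 of 10 Nucleoid libraries in trnL, 7 in trnA and 5 in trnI lay below those of every Naked library.

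In trnK the ends held 81.3 ± 14.6 in Nucleoid libraries, against 99.3 ± 33.5 in Naked libraries, and the middle held 71.7 ± 8.1, against 56.0 ± 24.3. Neither segment passed, with log2 fold changes of -0.21 at the ends (limma adjusted p = 0.364) and 0.52 in the middle (adjusted p = 0.115). The middle was at 0.04 without Naked replicates 9, 10 and 11 (adjusted p = 0.793). In the same fit the trnK ends were called lower, at -0.55 (limma adjusted p = 0.000628), as were the trnG ends, at -0.45 (adjusted p = 0.0114). Over all libraries the ends changed by -0.10 in trnG (adjusted p = 0.726) and by -0.09 in trnV (adjusted p = 0.597). The trnV ends held 78.0, 95.8 and 103.5 in Naked replicates 9, 10 and 11, while Naked replicates 1 to 8 ran from 89.5 to 184.8. The trnV change without those replicates is not given here. Among the members the only middle called was that of trnA, at -0.38 (adjusted p = 0.0345), while 23.2% of the 69 genes were called there, 10.1% of the 69 lower. It was not called without Nucleoid replicate 1, 2, 5, 6, 8 or 9 or Naked replicate 7, 9, 10 or 11, nor without the last 3 of these together (-0.21, adjusted p = 0.157). Without Nucleoid replicates 6 to 9 no end and no middle of any of the 69 genes was called by limma, with 16 ends and 11 middles at an unadjusted p under 0.05.

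The ends were also read separately, by coordinate, since the strand of each gene was not used. In trnK the end at lower coordinates held 64.8 ± 16.5 in Nucleoid libraries, against 85.3 ± 12 in Naked libraries, and the end at higher coordinates held 97.7 ± 14, against 113 ± 58. The log2 ratio to the middle differed by -0.95 at the first of these ends (limma adjusted p = 0.00386) and by -0.44 at the other (adjusted p = 0.0282). In trnG the difference was called at higher coordinates only (-0.74, adjusted p = 0.00491, against -0.25 and 0.0767 at lower coordinates), and whether the ends of a gene differed from each other was not tested. In trnI both ends were called, at -0.43 (adjusted p = 0.00441) at lower and -0.36 (adjusted p = 0.0391) at higher coordinates.

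**Figure D3:**
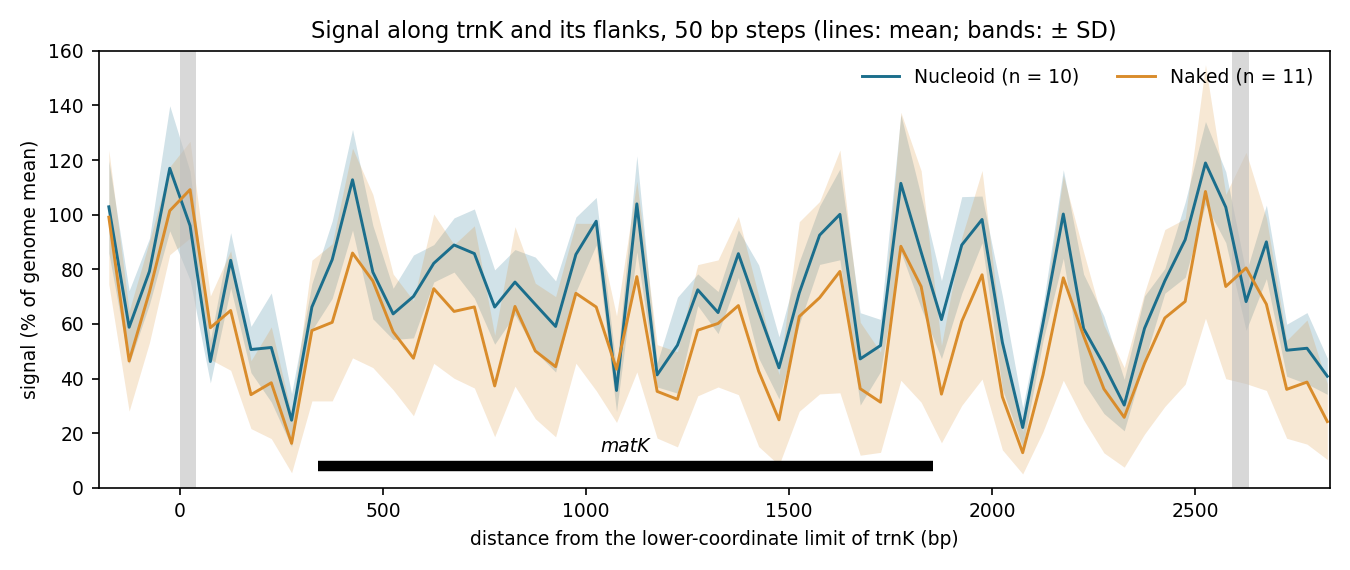
Mean signal in 50 bp steps along trnK and 200 bp of flank on each side (y axis, percent of the genome mean; x axis, distance in bp from the limit of trnK at lower coordinates), for 10 Nucleoid and 11 Naked libraries, with bands of ± SD; grey stripes mark the first and last 40 bp and the black bar marks matK. The fractions share their highs and lows, and the Nucleoid line lies above the Naked line through most of the intron. The order turns round at both grey stripes.

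Signal along these genes had a similar shape in both fractions. In 50 bp steps the mean profile of trnK had its lowest step 2050 bp from the limit at lower coordinates in both, at 22.1 in Nucleoid and 12.9 in Naked libraries. Its highest step was at 2500 bp in Nucleoid, at 119. In Naked libraries the very first step was highest, at 109, with the step at 2500 bp close to it, at 108. Across steps within a gene the Nucleoid and Naked means correlated with a Pearson r of 0.91 in trnK (52 steps), 0.92 in trnG (15 steps), 0.95 in trnL (11 steps), 0.92 in trnV (13 steps), 0.72 in trnI (16 steps) and 0.82 in trnA (17 steps). These steps share libraries and base composition, and the r describes the profiles only.

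**Figure D4:**
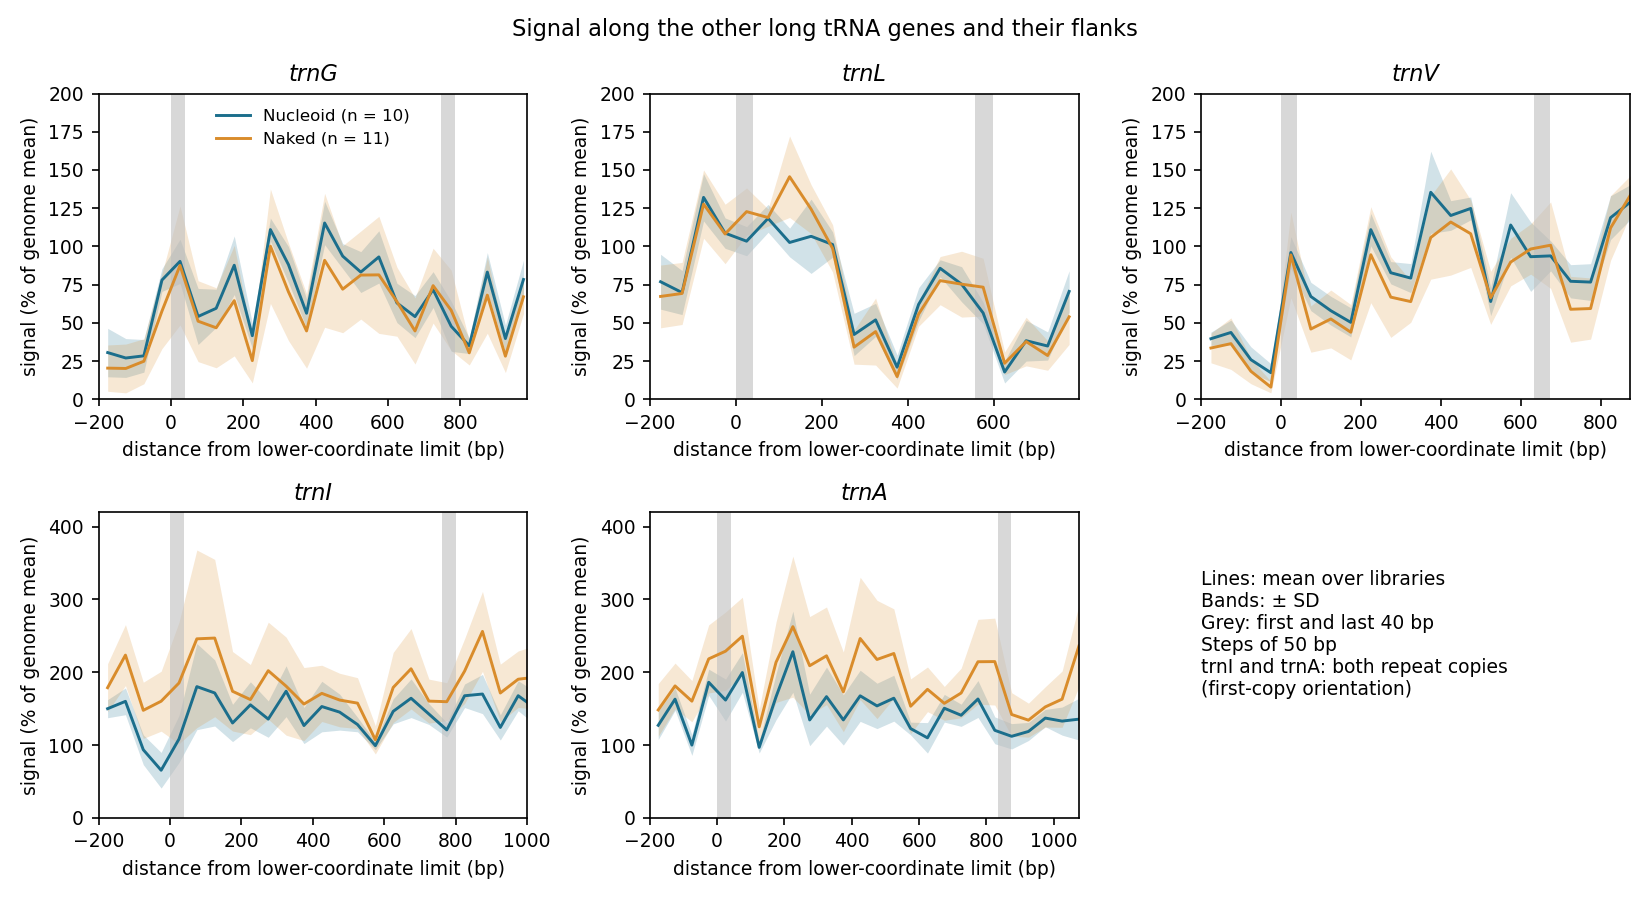
Mean signal in 50 bp steps along trnG, trnL, trnV, trnI and trnA with 200 bp of flank on each side (y axes, percent of the genome mean, with a larger range for trnI and trnA; x axes, distance in bp from the limit at lower coordinates), for 10 Nucleoid and 11 Naked libraries with bands of ± SD. In trnI the Nucleoid line is lowest just before the first grey stripe, and in trnA the Naked line lies above the Nucleoid line throughout.

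Over whole genes, the members fell into low and high signal. The genes trnK, matK, trnG, trnL and trnV, in the large single-copy region, averaged below the genome mean in both fractions, and the repeat genes trnI and trnA averaged above it. Of the 7 members only trnA was called between fractions, lower in Nucleoid, while 33.9% of the 112 genes were called in either direction, 24.1% lower and 9.82% higher. The median log2 fold change was 0.10 over all genes and 0.06 over the 6 long tRNA genes. Fold changes are on the log2 scale of signal plus 1, and depend on the scaling. With libraries scaled to the median window of the genome the median of all genes was -0.05, a shift of -0.15, and 3.23% of called genes were higher in Nucleoid, compared with 28.9% as reported. Scaled to the single-copy regions the shift was -0.11 and the share of higher calls 6.67%.

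**Figure D5:**
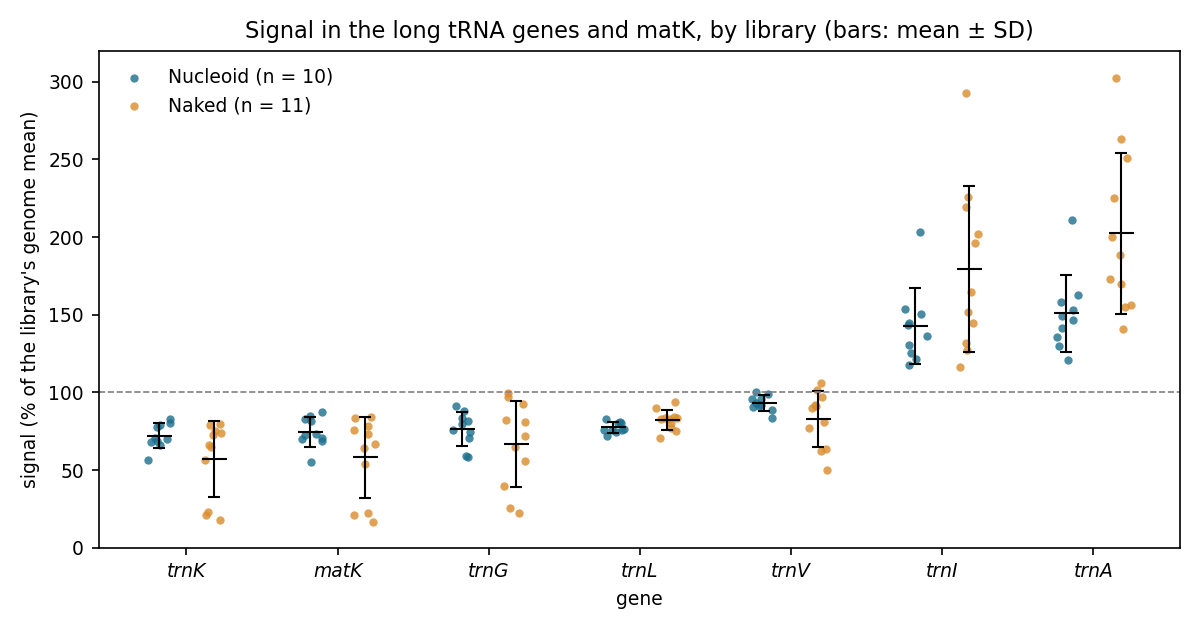
Signal of each gene (y axis, percent of the library's genome mean) with 1 point per library, 10 Nucleoid (left) and 11 Naked (right), and bars at the mean ± SD; the dashed line marks the genome mean. In trnK, matK and trnG the 3 lowest Naked points are replicates 9, 10 and 11, and in trnI and trnA the Naked points reach higher than the Nucleoid points.

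The trnK signal had a lowest, median and highest value of 56.4, 70.4 and 82.8 in Nucleoid libraries, against 17.6, 66.4 and 79.9 in Naked libraries. The low Naked values came from replicates 9, 10 and 11, at 21.4, 23.1 and 17.6, while the other 8 Naked libraries ran from 56.3 to 79.9. The means were 72.0 ± 8.0 in Nucleoid and 57.3 ± 24.5 in Naked libraries, a log2 fold change of 0.49 with an SE of 0.25 that did not pass (limma adjusted p = 0.114). Without those 3 libraries it was 0.02, and among libraries of more than 600000 counts it was -0.0038.

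The same held for matK and trnG. In matK the lowest, median and highest signals were 55.2, 73.0 and 87.6 in Nucleoid libraries, against 16.5, 67.1 and 84.3 in Naked libraries, a log2 fold change of 0.54 with an SE of 0.27 (limma adjusted p = 0.105). Without Naked replicates 9, 10 and 11 it was 0.04. In trnG they were 58.4, 77.6 and 91.4 in Nucleoid, against 22.7, 72.1 and 99.6 in Naked libraries, a log2 fold change of 0.33 with an SE of 0.23 (adjusted p = 0.227), and without those 3 libraries it was -0.07. The size of each of these gene-level differences thus rested on 3 Naked libraries.

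In trnL the signal kept to a narrow range, with a lowest, median and highest value of 72.3, 76.1 and 83.1 in Nucleoid, against 70.6, 82.7 and 93.9 in Naked libraries. The log2 fold change was -0.08 with an SE of 0.05 (limma adjusted p = 0.142). It was called lower when libraries were scaled to the median window (-0.23, adjusted p = 0.00995) or to the single-copy regions (-0.19, adjusted p = 0.00962). In trnV the values were 83.5, 92.7 and 100.5 in Nucleoid, against 49.9, 90.2 and 105.8 in Naked libraries, a log2 fold change of 0.20 with an SE of 0.11 (adjusted p = 0.129). Naked replicates 9, 10 and 11 were the low ones, and without them it was 0.02 (adjusted p = 0.878).

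The repeat gene trnI had 118, 140 and 204 as its lowest, median and highest signals in Nucleoid libraries, against 116, 165 and 293 in Naked libraries, and the log2 fold change of -0.29 with an SE of 0.14 did not pass (limma adjusted p = 0.101). It was -0.10 without Naked replicates 9, 10 and 11 (adjusted p = 0.586), -0.08 with a term for log2 depth and -0.0012 among libraries of more than 600000 counts. In trnA they were 121, 148 and 211 in Nucleoid, against 141, 189 and 302 in Naked libraries. Replicate 11 was the high Nucleoid library, and the other 9 lay under the median Naked value. The means were 151 ± 25 in Nucleoid and 202 ± 52 in Naked libraries, a log2 fold change of -0.39 with an SE of 0.13 (adjusted p = 0.0198).

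The trnA call did not pass without Naked replicates 9, 10 and 11 (-0.22, adjusted p = 0.0935), without Nucleoid replicates 6 to 9 (-0.37, adjusted p = 0.170), with a term for log2 depth (-0.22, adjusted p = 0.165) or among libraries of more than 600000 counts (-0.15, adjusted p = 0.182), so depth and these libraries moved with the result, and their part in it was not tested. The ribosomal RNA genes on either side differed in the same direction, with a log2 fold change of -0.50 in rrn16S (adjusted p = 0.0198) and -0.51 in rrn23S (adjusted p = 0.0141). Naked replicates 9, 10 and 11 held the highest Naked signals in rrn16S, 288, 298 and 374, while Naked replicates 1 to 8 ran from 137 to 262. In rrn23S the same replicates held 282, 284 and 351, while Naked replicates 1 to 8 ran from 138 to 255. Each library held 49.0% to 51.0% of its trnA counts and 50.3% to 52.7% of its trnI counts in the first repeat copy. Reads that match both copies cannot be assigned to either, so these shares do not compare the copies. Beside trnK, psbA, which encodes the D1 protein of photosystem II, had a log2 fold change of -0.26 (adjusted p = 0.00737), and rps16, a ribosomal protein gene, had 0.39 (adjusted p = 0.0996). In rps16 Naked replicates 9, 10 and 11 held 37.5, 30.5 and 27.6, while Naked replicates 1 to 8 ran from 56.4 to 86.8. In psbA the same replicates held 182, 159 and 167, while Naked replicates 1 to 8 ran from 122 to 154. For these neighbour genes, fold changes without Naked replicates 9, 10 and 11 are not given here.

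The short tRNA genes have no intron. Of 24, 16 were called lower in Nucleoid and 0 higher, with a median log2 fold change of -0.41, while 1 of 6 long tRNA genes was called lower. The 11 listed protein-coding genes with introns had a median of 0.15, with 3 called higher (rpoC1, petB and ndhB) and 1 lower (rps12, over its listed 114 bp only). Whether the short and long tRNA genes differed from each other was not tested.

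In 100 bp windows, 25.0% of 1544 windows were called in either direction, 13.5% higher and 11.5% lower in Nucleoid, and the median log2 fold change was 0.18. None of the 25 windows wholly within trnK was called, although all 25 lay above 0. They ran from 0.12 with an SE of 0.12 in the window Pltd:1801-1900 (TAIR10), at the edge of the intron, to 0.88 with an SE of 0.41 in Pltd:3101-3200, within matK, and the lowest window within matK was Pltd:2701-2800 at 0.26 with an SE of 0.22. In trnG none of 7 windows was called, with values from 0.08 in Pltd:9301-9400 to 0.72 in Pltd:8801-8900.

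The other genes held 9 called windows. In trnL 1 of 5 windows was lower, Pltd:47001-47100 in the intron, with 105 ± 17 in Nucleoid libraries against 130 ± 18 in Naked libraries (log2 fold change -0.31, limma adjusted p = 0.0274). That call was lost without Nucleoid replicate 2 or 6 or Naked replicate 10. Its highest window was Pltd:47201-47300 at 0.49. In trnV 1 of 6 was higher, Pltd:51501-51600, at 0.35 (adjusted p = 0.0450), between the lowest window, Pltd:51601-51700 at 0.17, and the highest, Pltd:51401-51500 at 0.36, which were not called. The called windows of trnV and trnI were picked after their values were seen.

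In trnI all 8 windows lay below 0 and 1 was called, Pltd:103501-103600, at -0.28 (limma adjusted p = 0.0195), while the lowest, Pltd:102801-102900, at -0.51 with an SE of 0.24, and the highest, Pltd:103301-103400, at -0.13, were not. In trnA all 8 lay below 0 and 6 were called lower, the lowest being Pltd:104201-104300 with 114 ± 17 in Nucleoid libraries against 167 ± 33 in Naked libraries (log2 fold change -0.53, adjusted p = 0.00461). Its highest window, Pltd:103801-103900, was at -0.23. Calls in windows depended on the libraries: 3 of 1544 windows were called among libraries of more than 600000 counts, with 371 at an unadjusted p under 0.05.

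The reading frame of matK was set against the rest of trnK, since the gene lies in the intron, 339 bp from one limit of trnK and 777 bp from the other. The log2 ratio of matK signal to that in the other 1116 bp of trnK had a lowest, median and highest value of -0.07, 0.15 and 0.20 in Nucleoid libraries, against -0.22, -0.0023 and 0.22 in Naked libraries. The fractions overlapped, and 9 of 10 Nucleoid ratios exceeded the median Naked ratio. The means were 0.13 ± 0.08 in Nucleoid (SD, n = 10) and 0.02 ± 0.14 in Naked (SD, n = 11), a difference of 0.11 (two-sided permutation test, p = 0.0438).

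That difference turned on the ends of trnK. With the first and last 40 bp of trnK left out it was 0.03 (permutation p = 0.543). It also did not pass without Naked replicates 9, 10 and 11 (0.06, exact permutation p = 0.215), and without single libraries it passed in 6 of 21 fits, those without Nucleoid replicate 8 or 11 or Naked replicate 1, 2, 3 or 6. Within the intron, the stretch at lower coordinates of matK held 57.7 ± 9.98 in Nucleoid, against 49.2 ± 14.3 in Naked libraries, and the stretch at higher coordinates held 71.1 ± 4.7 in Nucleoid, against 54.1 ± 25.5 in Naked libraries. Naked replicates 9, 10 and 11 carried most of that gap, and the other 8 Naked libraries held 56.2 ± 9.0 and 68.9 ± 4.3 in these stretches.

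For 3 members the genes with the most similar signal across the 21 libraries were taken as the 2 with the highest Pearson r of log2 signal among 105 genes. For matK they were ccsA, which acts in cytochrome c assembly (r = 0.988), and rps16 (r = 0.987). For trnG they were ndhD, a subunit of the NADH dehydrogenase-like complex (r = 0.985), and rps18 (r = 0.983). For trnA they were its operon neighbours rrn23S (r = 0.991) and rrn16S (r = 0.990). Each r is the highest of many, over libraries that differ in depth and evenness, and is a description without a test.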

How the data were processed

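ptATAC-seq libraries of the Nucleoid and Naked fractions were grouped by their labels. The authors deposited whole-number counts per plastid position in TAIR10 coordinates, per the file headers, in 22 columns, all matched to samples. Reads were trimmed with Trim Galore 0.4.1, and Bowtie2 and bedtools 2.25.0 are named, per the submitters' processing notes. The unit check could not read the deposited layout, space-delimited with commas in the column names, so no count model served as the main fit. As an alternative, limma voom was run on the counts of whole genes. It called 36 of 112 genes, with trnA at -0.40 (adjusted p = 0.0157). Duplicate removal and any shift of read ends to the Tn5 centre are not given in the sources used here. A shift of a few bp matters most for 40 bp ends, so gene limits were also moved by 5 bp, and duplicates, if kept, lower the precision of a count.

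Gene limits came from a RefSeq table (TAIR10.1), without strand or exons. Its coordinates were checked on the counts: the repeat copies matched best when paired positions summed to 238649 (r = 0.93, against 0.24 for the next of 1301 sums). Features averaging under 10 scaled counts would have been removed, and none was. limma 3.58.1 (R 4.3.3) tested log2(signal + 1) over 112 genes, log2(ends/middle) over 69 genes of 200 bp or more and 1544 windows of 100 bp, two-sided, Benjamini-Hochberg adjusted, at 0.05. The matK ratio was tested with 100000 permutations, and exactly where either group was under 10, except with a depth term, which used permutations. The fits of whole genes and of windows and the permutation test were tried on simulated data. Ends over middle was not simulated, and the simulated counts had the same extra spread in every library.

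Named were every member, the extreme windows of each, the 2 genes most like matK, trnG and trnA, the neighbours of trnK, trnI and trnA, and comparison lists. Members and lists were chosen with earlier results of these data known. Shared replicate numbers were not taken as pairs: 7 of 10 same-number pairs had r over 0.1, and 1 of 10 Nucleoid libraries correlated best with its own number.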

Additional observations from a re-analysis of the deposited data

Results flagged for a closer look

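Nucleoid replicate 11, the least deep Nucleoid library with 202725 counts, stood far from the other 9 Nucleoid libraries in 4 of 15 values examined (Dixon's test at the 95% level), where chance gives 0.75. Its trnI signal was 204, with the next highest at 154, and its trnA signal was 211, with the next highest at 163. Its log2 ratio of ends to middle in matK was 0.10, with the next lowest at 0.26. Its log2 ratio of matK to the rest of trnK was -0.0746, with the next lowest at 0.08. The 15 values were not independent, with trnI and trnA signal at a Pearson r of 0.97 across the 21 libraries. The flagged trnI and trnA signals are thus not separate departures, and whether the flagged matK ratios moved with them was not tested. Depth and unevenness (0.96, the highest of the Nucleoid libraries) moved with the 4 flagged values, and their part was not tested. Without this library the trnA signal was called at a log2 fold change of -0.45, and the matK ratio differed by 0.13 (exact permutation p = 0.0116).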

How the results depend on the processing

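The lower ends over middle of the 6 long tRNA genes kept their direction under all 14 alternatives and without each single library. All 6 were called in 14 of the 21 fits without a single library and 5 in the other 7. With the replicate number as a block (the replicate block), 5 were called (trnA not, adjusted p = 0.0791), trnI signal was called (-0.25, adjusted p = 0.0414), the matK ratio was 0.0969 (exact permutation p = 0.0176) and 619 windows were called; no other call of a member's whole gene or of its ends over middle changed. With 1 end only, 3 of 6 were called at lower and 5 at higher coordinates. With ends of 20 bp, of 60 bp (trnV -0.19, limma adjusted p = 0.104) or replicates 1 to 8 only, 5 were called. Of the 69 genes, 7.25% were called lower with the end at lower coordinates and 10.1% with that at higher coordinates. The share was 10.1% with ends of 20 bp, 8.7% with 60 bp, 10.1% in replicates 1 to 8 and 11.6% with the block.

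Of all genes, 38 were called as reported, 20 with log2 depth, 15 in libraries of more than 600000 counts (deep libraries), 8 without Nucleoid replicates 6 to 9 and 30 to 43 without a single library. For ends over middle 16 genes were called as reported, 26 with 20 bp ends, 10 with 60 bp ends, 7 without Nucleoid replicates 6 to 9 and 10 (without Nucleoid replicate 6) to 18 without a single library. For ends alone 24 were called as reported, 14 at higher coordinates, 15 with depth or without Naked replicates 9 to 11, 10 in deep libraries. For middles alone 16 were called as reported, 1 with depth, 0 in deep libraries (limma, 9 at an unadjusted p under 0.05), 8 with the block, 2 in replicates 1 to 8 and 5 without Naked replicates 9 to 11. Of windows 386 were called as reported, 882 of 50 bp, 176 of 200 bp, 111 with depth, 3 in deep libraries, 143 without Naked replicates 9 to 11, 3 without Nucleoid replicates 6 to 9, and 180 (without Nucleoid replicate 6) to 650 (without Naked replicate 1) without a single library.

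The matK ratio of 0.108 did not pass with limits moved 5 bp up (0.0857), without the ends of trnK (0.0281), with depth (0.0538), in deep libraries (0.0370), in replicates 1 to 8 (0.0834), without Naked replicates 9 to 11 (0.0624) or without Nucleoid replicates 6 to 9 (0.106), and ran from 0.0842 to 0.130 without a single library.

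Values that changed sign, none of them called, were, in deep libraries, trnK signal (-0.0038), trnG signal (-0.129), the trnG middle (-0.0934), the trnI middle (0.0302), matK ends (-0.0290) and matK ends over middle (-0.0434), which was also -0.0312 with depth and -0.0135 with limits 5 bp down. Without Naked replicates 9 to 11 they were trnG signal (-0.0677) and the trnG middle (-0.0227). Ends alone changed sign in trnK (0.0280 with 60 bp, 0.0881 at higher coordinates), trnG (0.130 at lower coordinates, 0.0563 with limits 5 bp up, 0.0552 without Nucleoid replicates 6 to 9) and trnV (0.0434 with 60 bp, 0.0361 at lower coordinates, 0.0149 without Nucleoid replicates 6 to 9).

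Extreme windows changed sign too. The lowest of trnK was -0.0269 scaled to the median window, -0.0402 in deep libraries and -0.0217 without Naked replicates 9 to 11, and the lowest of matK was -0.0468 in deep libraries, -0.135 in replicates 1 to 8 and -0.152 without Naked replicates 9 to 11. The lowest of trnG was -0.0686 scaled to the median window, -0.0242 to the single-copy regions, -0.0243 with depth, -0.0808 in deep libraries, -0.0685 in replicates 1 to 8, -0.149 without Naked replicates 9 to 11, and ran from -0.0176 (without Naked replicate 11) to 0.157 without a single library. Without Naked replicates 9 to 11 the highest of trnV was -0.00025 and that of trnA 0.0023, which was also 0.0913 with depth and 0.0979 in deep libraries, where the highest of trnI was 0.0351. The highest window of trnG was called without Nucleoid replicate 11 or Naked replicate 1, 2, 3 or 4, and the lowest of trnI without Nucleoid replicate 11 or Naked replicate 1. The cause of these changes was not tested. Counts were modelled for whole genes only (limma voom), not for ends, middles or windows. The 5' and 3' ends could not be told apart and were replaced by ends by coordinate. These ends by coordinate and the fits without Nucleoid replicates 6 to 9 were chosen after seeing the data.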
